A study of Mus musculus with 2 samples.

Results

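Wnt ligands, their co-receptors and the genes that carry or answer the signal were followed in mouse primary chondrocytes before and after mechanical loading. The 10 genes are the ligands Wnt4, Wnt5a, Wnt5b and Wnt11, the co-receptors Lrp5 and Lrp6, the signal transducer Ctnnb1, the feedback inhibitor Axin2 and the transcription factors Lef1 and Tcf7. They are 10 of the 20660 genes that could be named on the arrays through RefSeq transcript accessions, and the rule takes them by name and uses no measured value, although earlier results of these data were known when they were chosen. A total of 14 probes carried an accession of one of them. In 6 genes there was 1 probe, and in the other 4 (Wnt4, Lrp6, Axin2 and Tcf7) there were 2 probes, of which the brighter represents the gene.

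The cells came from C57BL/6J mice that were 6 days old. One array held RNA of cells collected before loading, and the other held RNA of cells collected 24 h after cyclic tensile strain, in which the flexible chamber floor was stretched by 10% at 0.5 Hz for 30 min. Each group is thus a single array, no test could be run, and the log2 ratios below have no replicate check. The errors given are those that the scanner software assigns to a spot on each array, combined for the ratio. They cover within-array error only. For brighter probes printed as 1 spot they had nearly the same value, 0.204 for Col2a1 as for Lrp5. They do not measure the spread between spots or between cultures. No array of unloaded cells kept for the same 24 h was analysed here, so loading and further culture cannot be told apart. Whether an array held cells of several animals is not given in the sources used here.

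Wnt proteins are secreted lipid-modified signals that bind Frizzled receptors. In the canonical branch, LRP5 or LRP6 joins Frizzled as co-receptor, a complex built on Axin and APC stops marking β-catenin (the product of Ctnnb1) for destruction, and β-catenin enters the nucleus to act with factors of the TCF/LEF family. Axin2, Lef1 and Tcf7 are known targets of this branch in many tissues, and Axin2 in turn limits the signal. Wnt5a, Wnt5b and Wnt11 are best known for signalling without β-catenin, in the planar polarity and calcium branches. In growth cartilage, Wnt signals take part in the pace of chondrocyte proliferation and hypertrophy, and in adult cartilage both too much and too little β-catenin signalling harm the tissue.

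All 10 genes were detected, that is measured well above the local background before loading as well as at 24 h, and 0 of the 10 differed by more than 2-fold. Among the 14231 genes detected in this way, the share past 2-fold was 0.668% on the higher side, 1.83% on the lower side and 2.49% in all. With a limit of 1.5-fold, Lef1 was the only one of the 10 past it, on the lower side, where 5.84% of all detected genes lay (9.49% on either side). The number of the 10 more than 1.5-fold higher was 0, against 3.65% of all detected genes. The log2 ratio was below 0 in 6 of the 10 genes, against 52.4% of detected genes, and in 5 of the 10 with scaling to array medians, scaling to spike-in controls or normexp background correction, where the share of detected genes was 36.9%, 40.5% and 50.7%. The median log2 ratio of the 10 was -0.13, against -0.01 over all detected genes. The ratios of Lef1 and Wnt11 lay more than 2 within-array errors from 0, and those of 5 others, Wnt5a, Wnt5b, Lrp5, Lrp6 and Axin2, lay within 1 error of it. The share of all detected genes at these error limits was not counted, so these counts do not set the 10 genes apart.

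**Figure D1:**
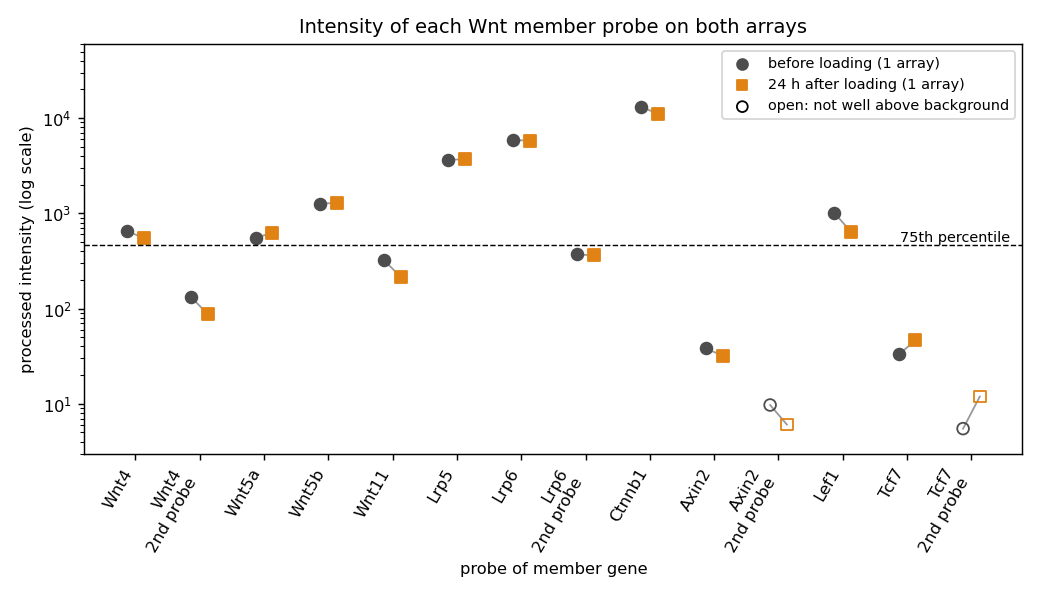
Processed intensity (log axis) of each probe of the 10 genes before loading (circles) and 24 h after (squares), 1 array each. Open symbols mark 2 probes not well above background on either array, and the dashed line is the mean of the arrays' 75th percentiles. Each pair should be read for its slope only, since intensities of different probes cannot be set against each other; Lef1 goes from 1006 to 636, while the pairs of Lrp5 and Lrp6 are level.

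The label of the cells was checked against markers. All 8 chondrocyte markers listed were detected and 0 passed 2-fold, among them Col2a1 and Acan, which code for the main collagen and proteoglycan of cartilage and had log2 ratios of -0.07 and 0.34. The lowest ratio of the list was that of Col11a1 (-0.82), a minor fibrillar collagen chain of cartilage, and the highest that of Matn1 (0.56), a matrilin of the cartilage matrix. Of the markers of other cells, 2 of 4 osteoblast markers with a probe were detected (Sp7 and Ibsp, log2 ratios -0.64 and -2.06), and the summed intensity of all 4 went from 363 to 122, with Dmp1 and Sost not well above background. Of 4 adipocyte markers 3 were detected, with log2 ratios between 0.95 and 2.29, and the summed intensity of all 4 went from 868 to 1833, with Lep not well above background. The 3 macrophage markers (summed intensity 3723 and 3393), 7 tenocyte or fibroblast markers (123139 and 122514), 2 of 4 endothelial markers (12894 and 12520 over all 4, with Cdh5 and Tek not well above background) and 2 of 4 skeletal muscle markers (1071 and 866 over all 4, with Myod1 and Ckm not well above background) were also detected. Of these, Ptprc of the macrophage list (log2 ratio 1.14) and Dpt of the tenocyte or fibroblast list (2.10) were more than 2-fold higher. Ptprc was dim, at 20.9 before loading and 46.1 at 24 h (within-array error 0.35), where the lowest passing intensity before loading was 17.3. With normexp correction the log2 ratio was 0.40 for Ptprc and 1.34 for Dpt. The summed intensities mostly follow the brightest probes of a list and do not measure amounts of cells. In the macrophage list that probe was of Csf1r (3646 and 3288), whose other detected probes had log2 ratios of 0.20 and 0.27. The part of the cells other than chondrocytes in the Wnt gene values was not tested. In RNA from a whole culture, fewer cells of a type and less RNA per cell cannot be told apart.

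Among the brightest probes of these 4 ligands, that of Wnt11 was furthest from its value before loading. Wnt11 directs cell movements and polarity in the embryo. Its only probe (transcript NM_009519) measured 320 before loading and 214 at 24 h. The log2 ratio was -0.58, with a within-array error of 0.21, which is 1.496-fold lower and just inside the limit of 1.5-fold. The same spot had a median pixel intensity of 374 before loading and 257 at 24 h, over a local background of 41 and 42. Of all detected genes, 5.90% had a log2 ratio as low as that of Wnt11 or lower. The ratio stayed between -0.60 and -0.48 across the processing settings, and it was past 1.5-fold where the local median was subtracted (-0.60).

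Wnt4, which in cartilage and the embryonic kidney and gonad acts through β-catenin or without it depending on the cell, gave less even values. The brighter probe measured 649 and 554, a log2 ratio of -0.23 (within-array error 0.20). The second probe, also of transcript NM_009523, measured 131 and 87.0, a log2 ratio of -0.60 (0.22). Both probes were lower at 24 h, but the size differed by 0.37 on the log2 scale, and 26.1% of the 3635 genes with more than 1 detected probe had a range at least as wide. Around the second probe, the 30 spots within 100 µm had a median log2 ratio of -0.22, and around the brighter probe the median of 27 spots was -0.03. The part of this local shift in the value of the second probe was not tested.

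Wnt5a and Wnt5b are close relatives expressed in growth cartilage, and the ratio of each was within its error under the scaling reported here. Wnt5a (NM_009524) measured 551 before loading and 625 at 24 h, and its log2 ratio was 0.18 with an error of 0.20. The 26 spots around it had a median log2 ratio of 0.19, and with this local median subtracted the ratio of Wnt5a was -0.01. With median scaling it was 0.28 and with spike-in scaling 0.26, both above its error. Wnt5b (NM_009525) measured 1264 and 1287, a log2 ratio of 0.03 (0.20). With 1 probe for each gene, transcripts that lack the probed stretch were not measured.

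The stretches before the starts of these genes were read from RefSeq because TCF/LEF factors, one of which is Lef1 itself, bind the letters ATCAAAG or AACAAAG. Of the 10 genes, 7 had windows in the RefSeq table of build GRCm38.p6, 15 windows in all, and the 250 bases before each start were searched on both strands. Among all 32851 windows of this length, 8.06% held either motif, 3.21% ATCAAAG and 5.03% AACAAAG. In the 15 windows of these genes there were 2 matches, both ATCAAAG. Each of the 2 matching windows held 1 match, and a match describes letters only. The matching windows are shown with the motif in capitals, 5′ to 3′ on the strand of the gene. Wnt11 lies on the forward strand at chr7:98834862-98835111, with the motif starting 51 bases before the start site. Wnt5b lies on the reverse strand at chr6:119449387-119449636, a window before an alternative start. The motif is there on the opposite strand, so that it reads as its reverse complement CTTTGAT, 71 bases before the start.
Wnt11: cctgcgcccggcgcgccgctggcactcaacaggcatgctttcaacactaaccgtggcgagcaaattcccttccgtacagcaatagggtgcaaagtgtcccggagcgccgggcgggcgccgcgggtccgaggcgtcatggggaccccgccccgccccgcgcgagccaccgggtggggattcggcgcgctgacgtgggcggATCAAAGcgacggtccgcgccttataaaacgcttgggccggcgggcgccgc
Wnt5b: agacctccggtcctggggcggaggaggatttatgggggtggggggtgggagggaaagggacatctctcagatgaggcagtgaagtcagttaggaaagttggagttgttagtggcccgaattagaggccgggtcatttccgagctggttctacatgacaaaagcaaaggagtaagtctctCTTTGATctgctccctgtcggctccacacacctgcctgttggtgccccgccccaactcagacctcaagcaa

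These 2 genes with the same letters before a start had different values on the arrays, -0.58 for Wnt11 and 0.03 for Wnt5b on the log2 scale. The arrays do not tell which start a transcript was made from.

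The co-receptors were level. Lrp5, whose loss or gain of function changes bone mass, measured 3657 before loading and 3690 at 24 h on its probe (NM_008513), and its log2 ratio was 0.01 with an error of 0.20. Lrp6, the more widely required of the pair in the embryo, measured 5910 and 5778 on the brighter probe, a log2 ratio of -0.03 (0.20). The second probe of Lrp6 (both of NM_008514) measured 371 and 361, a log2 ratio of -0.04 (0.20). The 2 probes of Lrp6 thus differed by 0.0049 on the log2 scale, against a median range of 0.19 in genes with several detected probes. The sign of so small a ratio depended on the scaling. The ratio of Lrp6 was above 0 with median, spike-in or local scaling and with normexp background correction, and at most 0.07.

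Ctnnb1 codes for β-catenin, which also links cadherins to the cytoskeleton. Its probe (NM_007614) was printed as 2 spots, and the first measured 12586 before loading and 10812 at 24 h and the second 13497 and 11470. The spots gave log2 ratios of -0.22 and -0.23. Their mean was -0.23 with an error of 0.14, which is 1.17-fold lower, and 21.7% of detected genes had a ratio as low or lower. The error of each spot was 0.20, and that of the mean is smaller only because 2 spots of the same RNA were averaged. The spots lie far apart on the array, in rows 87 and 152, and the neighbours of each had median ratios of -0.09 and 0.03. Across the processing settings the ratio stayed between -0.23 and -0.13. The mRNA level does not measure the amount or the place of the protein, through which the canonical signal acts.

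**Figure D2:**
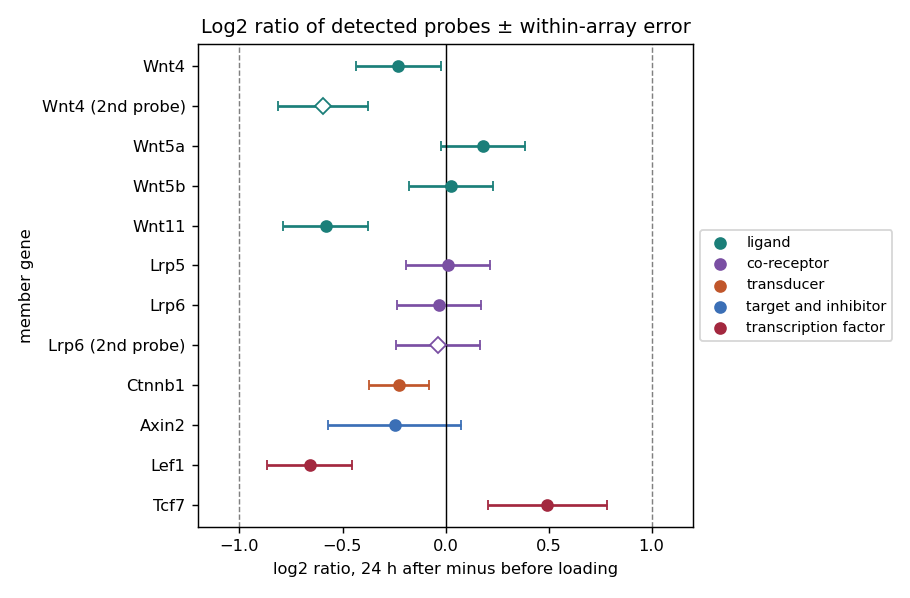
Log2 ratio of each detected probe, 24 h after minus before loading, with bars of 1 within-array error on either side. Filled circles are the probes that represent the genes, open diamonds second probes and dashed lines the limit of 2-fold; Lef1 (-0.66), Wnt11 (-0.58) and the second probe of Wnt4 (-0.60) lie furthest to the left and Tcf7 (0.49) furthest to the right, and no bar reaches 2-fold.

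Of the 3 genes known as targets of the canonical branch, Lef1 was lower at 24 h, Tcf7 was higher at a dim probe and Axin2 stayed within its error. Lef1, a factor that binds DNA and recruits β-catenin, measured 1006 before loading and 636 at 24 h on its only probe (NM_010703). Its log2 ratio was -0.66 with an error of 0.20, which is 1.58-fold lower and the lowest of the 10 genes. The median pixel intensity of the spot was 1122 before loading and 740 at 24 h, over a background of 40 and 41. The 29 spots around it had a median log2 ratio of 0.03, and of these 0 were more than 2-fold lower. Of all detected genes, 4.61% had a log2 ratio as low as that of Lef1 or lower. Across the processing settings the ratio stayed between -0.70 and -0.56, and with median scaling, spike-in scaling and normexp correction it came inside 1.5-fold.

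RefSeq lists 9 transcripts of Lef1, and the probe is named for 1 of them. The 4 windows before starts of Lef1 held neither TCF/LEF motif. The window before the first start, on the forward strand at chr3:131110047-131110296, is shown because Lef1 had the lowest ratio. It has no capitals since no motif was found, which says only that these letters are absent from this window.
Lef1: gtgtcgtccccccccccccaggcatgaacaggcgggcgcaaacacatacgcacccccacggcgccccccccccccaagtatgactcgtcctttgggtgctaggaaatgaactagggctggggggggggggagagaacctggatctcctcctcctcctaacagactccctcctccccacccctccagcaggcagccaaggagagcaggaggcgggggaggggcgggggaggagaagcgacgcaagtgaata

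Tcf7, which codes for TCF1, a relative of LEF1 with the same DNA-binding fold, measured 32.96 before loading and 46.38 at 24 h on the brighter probe (NM_009331), and its log2 ratio was 0.49 with an error of 0.29. The spot was dim, with a median pixel intensity of 84.5 over a background of 39 before loading and 95 over 44 at 24 h. The second probe of Tcf7, at 5.48 and 11.9, failed the background criterion on each array, so no ratio is given for it. With normexp correction of the background the ratio of the brighter probe was 0.15, and with the other settings it was between 0.47 and 0.59. Ratios spread widely among dim genes. Of the 1459 detected genes whose mean scaled log2 intensity (relative to the 75th percentile) was under -3, 6.51% lay past 1.5-fold on the higher side and 12.5% on the lower, 19% together.

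Axin2, the target most often used to read canonical activity, was also dim. The brighter probe (NM_015732) measured 38.1 before loading and 32.1 at 24 h, a log2 ratio of -0.25 that was smaller than its within-array error of 0.32. The median pixel intensity of the spot was 80 over a background of 38 before loading and 74.5 over 42 at 24 h. The second probe, at 9.71 and 6.06, failed the background criterion on each array. Across the settings the ratio stayed between -0.28 and -0.05. At this signal a difference of the size measured for Lef1 would be about 2 errors of Axin2, so a smaller one would not stand out from the error.

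**Figure D3:**
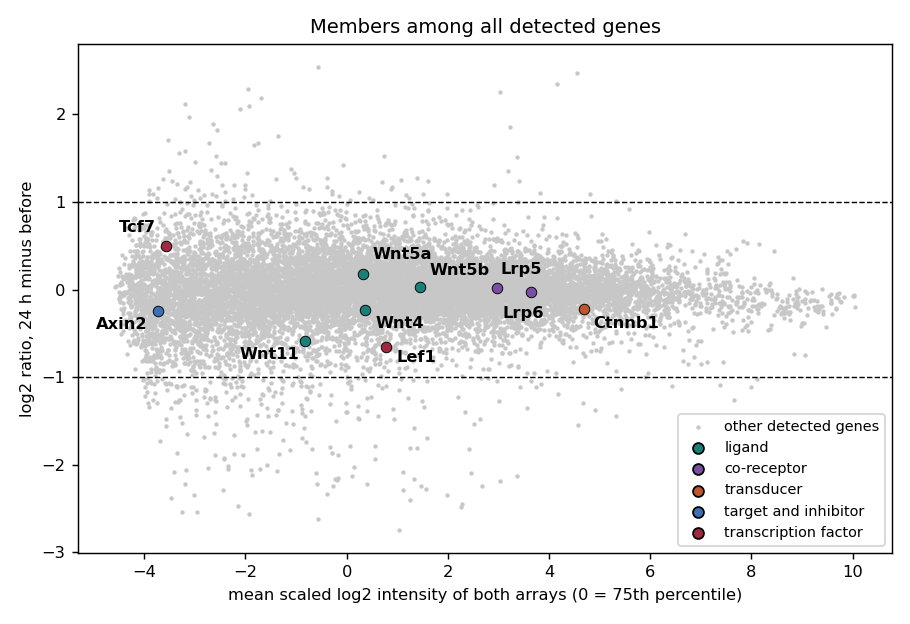
Log2 ratio (24 h minus before) against the mean scaled log2 intensity of both arrays for all 14231 detected genes (grey) and the 10 Wnt genes (coloured by role). The dashed lines mark 2-fold; the 10 genes lie between -0.66 and 0.49, Axin2 and Tcf7 at the dim end where the grey cloud is widest.

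Beyond these 10 genes, 131 other genes of the Wnt pathway were listed, of which 130 had a probe and 103 were detected on both arrays. Of the 103, 3 were more than 2-fold higher (Btrc, Sfrp2 and Frzb) and 1 was more than 2-fold lower (Fosl1), against the 0.668% and 1.83% of all detected genes. Their median log2 ratio was 0.02. None of the 4 passed 2-fold by more than 2 within-array errors.

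Of the 15 other Wnt ligands, 5 were detected on both arrays, 9 on neither and Wnt9b on 1. A ratio below 0 was found in 4 of the 5, or 3 with median scaling, against 52.4% and 36.9% of detected genes. Wnt10b, a ligand of the canonical branch, had the lowest, going from 344 to 204 in intensity, and its log2 ratio was -0.75 with an error of 0.21, and -0.49 with normexp correction. Wnt1 had the highest, 0.01, at intensities of 1452 and 1462, and only 1 of its 2 probes was detected on both arrays. The median over the 5 was -0.19, against -0.01 over all detected genes. With median scaling it was -0.09, against 0.08.

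The receptors were spread to both sides of 0. Of 18 receptor genes 14 were detected on both arrays, 9 with a ratio above 0 and 5 below, and 0 passed 2-fold. The share below 0 was 35.7%, against 52.4% of all detected genes. The lowest was Fzd3 (488 and 313, log2 ratio -0.64) and the highest Fzd8 (424 and 629, 0.57), both Frizzled receptors. Fzd9, another Frizzled, measured 23224 and 29033, a log2 ratio of 0.32. All 7 genes for the secretion of Wnt proteins were detected, between -0.11 for Vps35, which returns the Wnt carrier Wls from endosomes, and 0.37 for Gpc6, a cell surface heparan sulphate proteoglycan. Tmed2, of the early secretory pathway, had 0.03.

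All 17 genes of the destruction complex and Dishevelled were detected, and 13 of them had a ratio above 0, with a median of 0.17. The other 4 (23.5%) were below 0, against 52.4% of all detected genes. With median scaling 2 of the 17 were below 0, against 36.9% of detected genes. With the probes of a gene averaged, 11 of the 17 were above 0. Btrc, which codes for the ubiquitin ligase subunit that binds marked β-catenin, was the only one past 2-fold, at intensities of 169 and 383 and a log2 ratio of 1.18 (within-array error 0.21). Its second probe had a log2 ratio of 0.20, and the mean of its probes, 0.69, was inside 2-fold. The lowest ratio was that of Dvl2 (-0.23), a Dishevelled protein that relays the signal from Frizzled. Csnk1d, a casein kinase, had probes at 0.04 (the brighter) and -0.57. The 15 nuclear partners of β-catenin were all detected, between -0.46 for the co-repressor Tle4 (1 of its 2 probes detected) and 0.14 for the acetyltransferase Ep300. Their median was -0.11, against -0.01 over all detected genes. With median scaling it was -0.01, against 0.08. Hdac1, a histone deacetylase, had -0.11.

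Of 18 other genes listed as targets of β-catenin, 12 were detected on both arrays. Of the 12, 10 had a ratio below 0 and 2 above, with a median of -0.08. The share of all detected genes below 0 was 52.4%. With array medians 5 of the 12 were below 0, against 36.9% of detected genes, and with spike-in controls 7, against 40.5%, as these scalings add the same amount to every gene. Fosl1, a subunit of the AP-1 transcription factor, was the only one past 2-fold at its brightest probe. It measured 98.7 and 45.02, a log2 ratio of -1.13 (within-array error 0.26), and with normexp correction it had -0.55. The brightest probe of Cd44, of the same list, had -0.07. Another detected probe of Cd44 went from 572 to 276, a log2 ratio of -1.05 (0.21). Apcdd1, an inhibitor of Wnt signalling at the cell surface, had the highest ratio (0.09), and Notum, an enzyme that inactivates Wnt proteins, had 0.02 at intensities of 11944 and 12138.

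The secreted antagonists had the widest range of the lists. Of 14 genes 9 were detected, 5 with a ratio above 0 and 4 (44.4%) below, against 52.4% of all detected genes. Sfrp2 (634 and 1505, log2 ratio 1.25) and Frzb (4509 and 9708, 1.11), which both bind Wnt proteins outside the cell, were more than 2-fold higher, and Wif1, another Wnt-binding protein, had the lowest ratio (-0.65). In the planar polarity and calcium list, 20 of 22 genes with a probe were detected. They lay between -0.64 for the transcription factor Nfatc2 (1 of its 2 probes detected) and 0.57 for Daam2, which acts downstream of Dishevelled. Rhoa, a GTPase of the planar polarity branch, had -0.09 on the brighter probe and 0.20 on the other. Of 7 cadherins and catenins 5 were detected, between -0.27 for Cdh2 and 0.58 for Cdh11, the cell adhesion proteins N-cadherin and cadherin-11. Their second probes had -0.42 and 0.22, and Ctnna1, α-catenin, had 0.02.

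**Figure D4:**
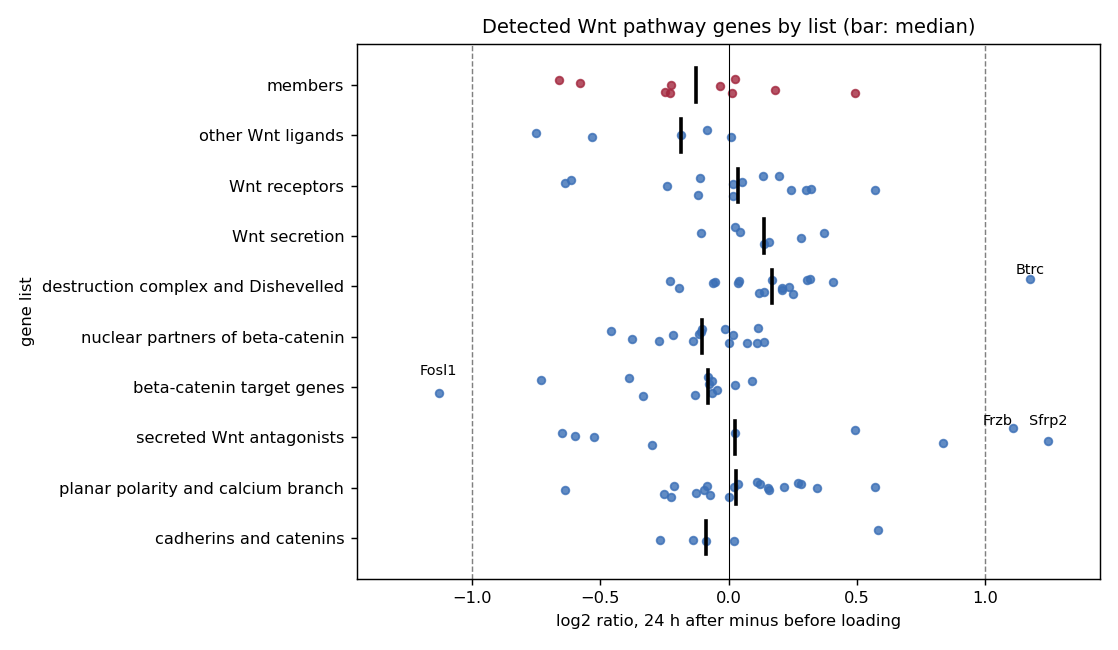
Log2 ratio (24 h minus before) of each detected gene in the Wnt lists, 1 point per gene at its brightest probe, with the median of each list as a black bar and 2-fold as dashed lines. Points are shifted up and down at random for clarity; Btrc, Sfrp2 and Frzb lie past 2-fold on the higher side and Fosl1 on the lower, while all 10 members lie inside.

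The spots of the 10 genes were also compared with the spots printed around them. Of the 15 spots of their probes, 0 carried an outlier flag, and each had between 26 and 30 neighbours within 100 µm. The highest number of neighbours more than 2-fold off in either direction was 7, around one of the spots of Ctnnb1, and 0 of those 7 were detected. Around Wnt11, 2 of 29 neighbours were more than 2-fold lower, with a local median of 0.02.

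**Figure D5:**
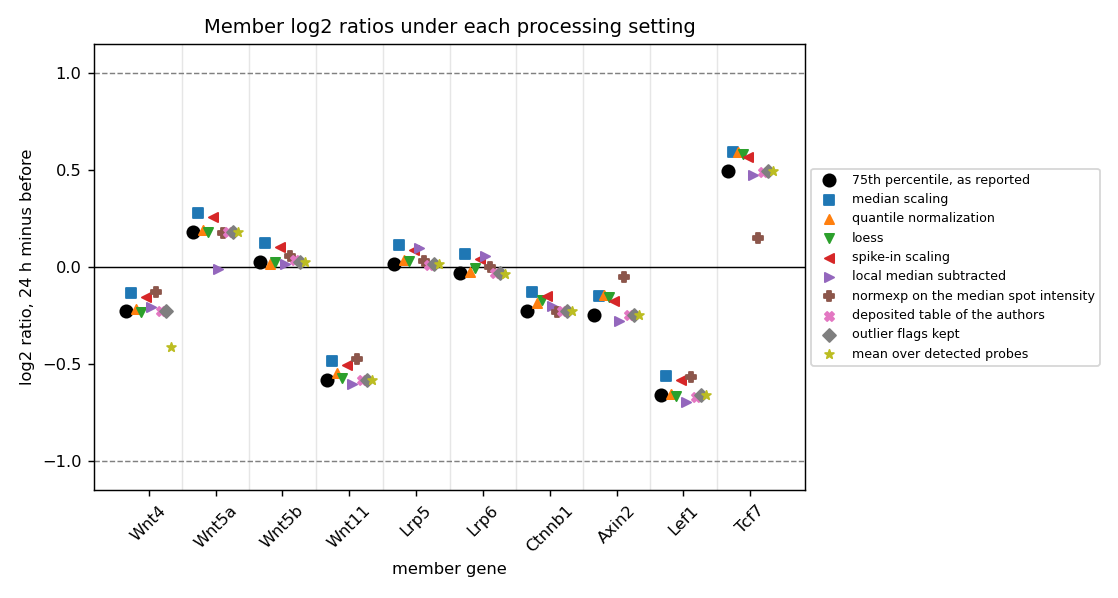
Log2 ratio (24 h minus before) of each of the 10 genes under the scaling reported here (black circles) and 9 other processing settings (coloured symbols, 1 per setting), with 2-fold as dashed lines. Lef1, Wnt11, Wnt4, Ctnnb1 and Axin2 lie below 0 and Tcf7, Wnt5b and Lrp5 above 0 under every setting drawn, and Tcf7 moved furthest, from 0.49 to 0.15 with normexp correction.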

How the data were processed

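RNA labelled with Cy3 was hybridised to 2 one-colour Agilent arrays. Whether both arrays lay on the same slide was not checked. The authors deposited each spot's processed intensity from Agilent Feature Extraction 10.10.1.1, background-subtracted and not normalised between arrays, with its error, flags and median pixel intensities. The probe design was annotated on mm9. The authors' deposited intensity table differed from the scanner values by at most 0.497% over 59305 spots.

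Flagged spots (141 before loading, 138 at 24 h) were left out, spots of a probe were averaged, and log2 intensities of the 55678 probes were set relative to each array's 75th percentile (466.4 and 466.2). Of the spots, 59.1% and 57.7% were well above background. RefSeq accessions (GRCm38.p6, names only) named 27235 probes. Detected means well above background on both arrays, in at least 50% of a probe's spots. No test was possible, and precision is limited by having 1 array per time point. A 2-fold limit was used. The members and lists were chosen with earlier results of these data known. Named are the 10 members, listed genes past 2-fold, and per list the highest and lowest log2 ratio and the highest intensity. Software was limma 3.58.1 (R 4.3.3), pandas 2.3.3, numpy 2.4.6 and Python 3.11.15.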

Additional observations from a re-analysis of the deposited data

How the results depend on the processing

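A total of 10 alternatives were run for each of the 10 members, and 0 values passed 2-fold. Of the 100 values, 99 moved by less than the within-array error. The exception was Tcf7, 0.15 with normexp correction of the median spot intensity. Many of the 100 could hardly move, so this count is no measure of stability. All 10 genes were detected, 0 of their spots were flagged, and only Wnt4 and Lrp6 had a second detected probe. The authors' table holds the same signal to within 0.497%. The sign changed for Lrp6 under 4 settings and for Wnt5a under 1, local median subtraction. Median scaling shifted the median ratio of all detected genes by 0.10.

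Among the members and other Wnt genes together, 3 were more than 2-fold higher and 1 lower. Without a filter on dim probes 6 were higher and 2 lower, which adds dim probes. When 2-fold had to be passed by more than 2 within-array errors, 0 were higher and 0 lower, with normexp correction 2 were higher and 0 lower, and at 1.5-fold 4 were higher and 9 lower, against 3.65% and 5.84% of all detected genes. Over all detected genes, 95 higher and 260 lower became 38 and 117 under normexp, for which the cause was not tested. They were 192 and 507 where 1 array sufficed for detection, 492 and 983 with no filter, 25 and 99 with the error allowance, and 520 and 831 at 1.5-fold. With median scaling they were 130 and 205. No paired analysis was possible because each time point has a single array, and for the same reason no replicate could be left out. Signal over background limits Axin2 and Tcf7, and the lowest intensities that passed the background criterion were 17.3 (before) and 17.8 (24 h), though some brighter spots did not pass.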

Other observations

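A further 5 of the 130 other Wnt pathway genes with a probe were well above background on 1 array only. Over all genes these were 753 of 20660, a similar share. The 5 were named after their values were seen. Each passed the criterion on the array where it was brighter, so the direction largely follows from the criterion. Their ratios set the bright array over the dim array's own signal, or over the lowest signal well above background there if that was higher. They are not bounds on the true difference. The errors given are within-array errors of the log2 ratio. Lgr5, a receptor for R-spondins and itself a target of β-catenin, measured 12.6 before loading and 25.6 at 24 h. By this measure it was 1.48-fold higher (error 0.60). The other genes were well above background before loading only. Wnt9b was 1.42-fold lower at 24 h by this measure (25.4 and 14.2, error 0.56) and Fzd10 1.16-fold (23.5 and 20.3, error 0.48). Ror1, a receptor for Wnt5a, was 1.60-fold lower (34.4 and 21.5, error 0.42). Prickle2, a planar polarity protein, was 1.66-fold lower (29.6 and 16.8, error 0.48). For Fzd10 and Ror1 the value is the ratio of the measured intensities. These intensities lie close to the lowest that the arrays resolve.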
